A study of Saccharomyces cerevisiae with 6 samples.

Results

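The 4 libraries of both RNA polymerase II elongation mutants of budding yeast were compared together with the 2 WT libraries, to find what changed in the same way in a fast and in a slow polymerase. The mutants were chosen by their labels, so that 4 of the 6 samples of the series are mutant and 2 are WT. The fast strain carries rpb1-G1097D and the slow strain rpb1-H1085Y, 2 libraries each, and the WT strain carries RPB1. In each strain the chromosomal RPB1 gene is deleted and the RPB1 or rpb1 allele is on a centromeric LEU2 plasmid. All 3 strains also lack UPF1, carry a TAP tag on RPB3, are MATa and were grown to log phase in YPDA, a rich medium. According to the paper, strains with either mutant allele grow more slowly than WT. Slower growth and altered elongation therefore cannot be told apart in changes shared by both mutants. Each genotype is 1 strain with 2 independent biological replicates, so that a p-value measures the spread between cultures of that strain, and the number of clones behind it is not stated. The genotypes themselves were not checked against these values, because neither RPB1 nor UPF1 has an intron.

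RNA polymerase II makes pre-mRNA while the spliceosome assembles on it, first at the 5′ splice site (5′SS) and the branch point and then at the 3′ splice site (3′SS). A slower polymerase gives the spliceosome more time before the next signal is made, and a faster one gives it less. Few yeast genes have introns, and ribosomal protein (RP) genes are prominent among them and give most of the cell's spliced transcripts. Upf1 acts with Nmd2 and Upf3 in nonsense-mediated decay, which removes RNAs with a premature stop codon, among them many products of splicing at a wrong site.

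Reads were counted per gene in classes: pre-mRNA reads lie on an exon-intron boundary or in the intron, and junction reads cross the spliced junction. The nuclear tables hold 309 genes, 86 RP and 223 non-RP, of which 45 are frameshift genes, mostly Ty elements, in which the annotated gap is a shift of the ribosome and not an intron. Junctions were taken from split reads, over 267 annotated nuclear introns and all other junctions. The depth was 4127729 to 6863818 uniquely mapped split reads per library, and the gene tables summed to 7682240 to 10927288 reads. Mitochondrial junctions took 0.492% and 0.649% of split reads in fast, 0.008% and 0.0053% in slow, and 0.9988% and 1.17% in WT, and only nuclear junctions were used. The library totals behind the deposited FPKM values, relative to WT replicate 1, were 1.11 and 1.12 in fast, 1.19 and 1.30 in slow, and 1.04 in WT replicate 2. Cultures were measured in bulk, so that fewer cells with a transcript and less of it per cell cannot be told apart.

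A change is called shared where the average of fast and slow differed from WT at an adjusted p under 0.05 (edgeR's quasi-likelihood test, Benjamini-Hochberg over all features tested) and neither WT library overlapped the 4 mutant libraries, all of them above or all below. The fast and the slow comparison use the same 2 WT libraries, so their values are given side by side and are not independent. Levels are counts scaled to 1000000 reads of their class (CPM) after TMM scaling, and changes are log2 of mutants over WT. TMM holds the bulk of genes near 0. Scaled by the whole library instead, the median change of all genes moved to -0.15 for junction reads, against 0.09 with TMM, and to -0.24 for pre-mRNA reads, against 0.03.

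The sequences of 3 annotated introns are shown first because PRE3 and TDA5 had fewer unspliced and more spliced reads in both mutants and NMD2 had the largest increase of spliced reads. The call of TDA5 is among those that depended on single libraries, as given below. They were read from the R64 genome, 5′ to 3′ on the strand of the gene, with the first 6 bases, the branch point motif TACTAAC and the last 3 bases in capitals.
PRE3 (chrX:435228-435343, + strand): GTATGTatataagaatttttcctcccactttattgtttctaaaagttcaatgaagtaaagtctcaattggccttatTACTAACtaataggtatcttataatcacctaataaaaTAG
TDA5 (chrXII:987142-987212, + strand): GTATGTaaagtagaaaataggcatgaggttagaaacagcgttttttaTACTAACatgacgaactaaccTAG
NMD2 (chrVIII:255638-255750, - strand): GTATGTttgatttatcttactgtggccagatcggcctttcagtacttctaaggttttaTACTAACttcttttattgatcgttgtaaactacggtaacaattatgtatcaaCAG
All 3 start with the common 5′SS GTATGT, which 76.0% of the 267 annotated introns have, and hold the exact motif, which is found on the transcribed strand in 220 introns (82.4%).

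For the pre-mRNA to mRNA ratio, 1 of 248 genes changed in both mutants, among genes in which each kind of read came to 10 or more in total (0.403% of genes tested). It was PRE3, which encodes a catalytic subunit of the 20S proteasome. Pre-mRNA was 6.12% and 6.77% of its reads in fast, 6.76% and 6.01% in slow, and 14.0% and 16.0% in WT. The 4 mutant libraries lay within 1 percentage point of each other and below both WT libraries. The log2 change of the ratio was -1.36 ± 0.17 (SE, adjusted p = 0.0113), -1.35 in fast and -1.37 in slow. The call rests on few libraries: the change was -1.25 to -1.47 when single libraries were left out, but the adjusted p was 0.151 and 0.156 without WT replicate 1 or 2, 0.11 without slow replicate 1 and 0.0875 without slow replicate 2.

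Other genes leaned the same way without passing this test. All 4 mutant libraries lay above both WT libraries in 12 genes and below them in 38, of which 7 and 26 were non-RP genes and 5 and 12 RP genes. An unadjusted p under 0.05 was reached by 44 of 248 genes. DESeq2, run on the same reads, called 2 genes higher and 7 lower without overlap, PRE3 among them. Of these, RPL17B, a protein of the large subunit, had 3.62% and 3.49% pre-mRNA in fast, 3.48% and 4.41% in slow, and 5.41% and 6.30% in WT (log2 change -0.68, adjusted p = 0.103 in edgeR). For CMC2, a mitochondrial protein needed for cytochrome c oxidase, the pre-mRNA was 4.37% and 4.16% of reads in fast, 4.63% and 5.95% in slow, and 11.4% and 12.6% in WT (log2 change -1.45, adjusted p = 0.135). RPL26B went the other way, with 7.28% and 9.98% in fast, 7.11% and 7.35% in slow, and 4.50% and 5.64% in WT (0.68, adjusted p = 0.135). These 3 genes were picked after their values were seen.

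Over the genes as classes, the averaged ratio moved little in RP genes, where fast and slow went opposite ways. Non-RP genes with an intron had a lower median in both mutants. The median log2 change was 0.06 for 86 RP genes (0.22 in fast and -0.13 in slow) and -0.24 for 153 non-RP genes with an intron (-0.21 in fast and -0.25 in slow), beside -0.07 for all 248 tested. The pre-mRNA share of all RP reads was 18.2% and 19.8% in fast, 14.8% and 16.5% in slow, and 16.8% and 17.1% in WT, so that WT lay between the mutants. Among non-RP genes the share was 25.2% and 25.4% in fast, 22.4% and 25.5% in slow, and 23.4% and 24.9% in WT (exact permutation p = 0.8, two-sided). With 4 libraries against 2 there are 15 arrangements, and the smallest two-sided p they allow is 0.133.
The 8 tested nuclear genes of mitochondrial proteins all had a negative change of the ratio (median -0.52), of which 0 were called and 3 lay below WT without overlap. Of all 248 genes 136 had a negative change and 38 lay below WT without overlap, and of the 153 non-RP genes with an intron 96 and 26 did. The 6 transcripts followed by RT-qPCR in the study were not called: the changes were -0.10 for COF1, 0.01 for ECM33, 0.18 for ACT1, 0.19 for RPL28, 0.27 for RPL39 and 0.34 for RPS13. RPS13 had 71.9% and 71.9% pre-mRNA in fast, 56.8% and 57.3% in slow, and 59.4% and 59.4% in WT, with fast above and slow below WT.

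Far more genes were called for the level of spliced RNA than for the ratio, though not with the mutants fitted as 1 group (1 call each). Of 263 genes tested for junction reads, 30 were higher in both mutants (11.4%) and 29 were lower (11.0%). The changes split by gene class: 28 of the 29 lower genes were RP genes, and 29 of the 30 higher genes were non-RP. Among 86 RP genes 28 were lower and 1 was higher, with a median log2 change of -0.16 (-0.07 in fast and -0.26 in slow). Among 147 non-RP genes with an intron 25 were higher and 1 was lower, with a median of 0.28 (0.23 in fast and 0.38 in slow), beside 0.09 for all tested. With 4 mutant libraries fitted as 1 group against WT, so that the difference between fast and slow counts as spread, 1 gene was higher and 0 were lower, with 52 at an unadjusted p under 0.05. Of the higher genes 13 also passed in fast and in slow against WT, each with its own adjusted p, and so did 16 of the lower genes. With the larger of both p-values adjusted instead, 5 higher and 9 lower genes passed. The counts were 11 higher and 19 lower without WT replicate 1, 16 and 22 without WT replicate 2, 19 and 30 without slow replicate 1, 20 and 43 without slow replicate 2, and 25 and 45 without fast replicate 1.

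**Figure D1:**
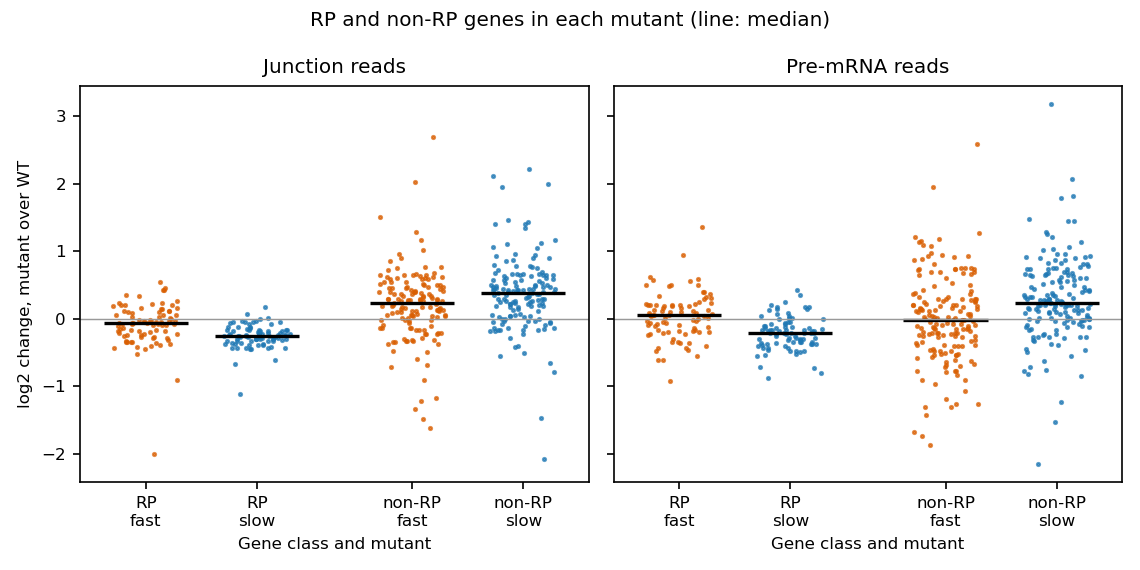
Log2 change of junction reads (left) and pre-mRNA reads (right) in fast and in slow over WT, 1 point per gene, for RP genes and non-RP genes with an intron, with the median as a black line. In junction reads the RP medians are -0.07 in fast and -0.26 in slow, and the non-RP medians are 0.23 and 0.38.

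Scaled by the whole library, the split became 10 higher and 35 lower, but the order of the classes stayed: 33 of 86 RP genes were lower and none was higher (median -0.39), and 7 of 147 non-RP genes with an intron were higher and 2 lower (median 0.05). As a share of all annotated junction reads, RP reads were 84.6% and 84.4% in fast, 83.6% and 81.8% in slow, and 85.9% and 85.3% in WT. All 4 mutant libraries lay below both WT libraries (difference -1.97 percentage points, exact permutation p = 0.133, two-sided).

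The 8 RP genes with the largest decrease came from both subunits. RPS14B had 1727 and 1270 CPM in fast, 927 and 812 in slow, and 2014 and 1743 in WT, a log2 change of -0.72 ± 0.12 (SE, adjusted p = 7.16e-06). Slow was lowest, and fast replicate 1 lay just below the lower WT library. RPL33B had 8859 and 8176 CPM in fast, 7167 and 6991 in slow, and 11030 and 10661 in WT, a log2 change of -0.48. RPL22A had 5985 and 6085 CPM in fast, 6066 and 5575 in slow, and 7866 and 8118 in WT (-0.43), with the mutants within a narrow range of each other. RPL22B (-0.58), RPL2B (-0.46), RPS27B (-0.45), RPS17A (-0.40) and RPL42B (-0.39) made up the rest. RPL22B did not pass without WT replicate 1 (-0.65), WT replicate 2 (-0.52) or fast replicate 2 (-0.51), and RPL2B did not without WT replicate 1 (-0.35). Both copies were lower in RP pairs such as RPL2, RPL6, RPL16, RPL22, RPL26, RPL40 and RPS16, and since copies of a pair can be nearly identical, reads may have been split between them. The exception among RP genes was RPS10B, with 15633 and 13876 CPM in fast, 13114 and 11492 in slow, and 11022 and 10900 in WT (0.30, adjusted p = 0.00145).

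**Figure D2:**
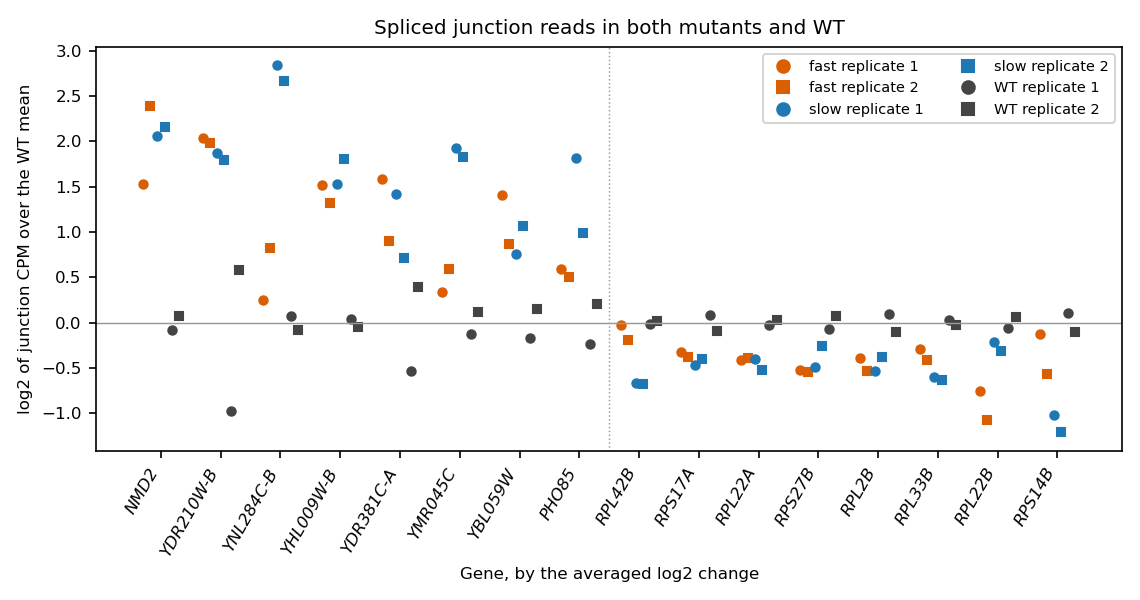
Junction reads of the 8 genes with the largest shared increase and the 8 with the largest shared decrease, as log2 of CPM over the WT mean, 1 point per library (fast, slow, WT). NMD2 is 2.07 higher on average and RPS14B 0.72 lower, and in each gene the mutants do not overlap WT.

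The largest increase of spliced RNA was that of NMD2, whose protein is the partner of Upf1 in nonsense-mediated decay. It had 119 and 218 CPM in fast, 173 and 185 in slow, and 39.2 and 43.7 in WT. All mutant libraries lay far above both WT libraries, with fast replicate 1 the lowest. The log2 change was 2.07 ± 0.31 (SE, adjusted p = 9.25e-07), 2.02 in fast and 2.11 in slow, and it passed the test under all 15 alternatives. Its reads were few, at 236 and 430 junction reads in fast, 325 and 454 in slow, and 87 and 87 in WT. Its pre-mRNA reads did not pass (89 and 67 in fast, 53 and 62 in slow, 19 and 50 in WT, adjusted p = 0.269).

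Apart from NMD2, the named non-RP genes belonged to several processes. YBL059W had 326 and 224 CPM in fast, 207 and 258 in slow, and 109 and 137 in WT (1.04, adjusted p = 0.000838). YDR381C-A (1.20) and PHO85, a cyclin-dependent kinase of phosphate signalling (1.0), completed the genes with the largest change. IWR1, which takes RNA polymerase II into the nucleus, had 157 and 188 CPM in fast, 186 and 156 in slow, and 55.9 and 122 in WT (0.95, adjusted p = 0.00865), and it was the only called member of 6 tested genes of transcription and chromatin. Of 8 tested nuclear genes of mitochondrial proteins 3 were higher and none lower (median 0.57, all 8 above 0), where 115 of 147 non-RP genes with an intron and 146 of all 263 genes were above 0, and 1 of the 8 was higher when scaled by the whole library. The 3 were MRPL44, a mitochondrial ribosomal protein (0.93), COX5B, a subunit of cytochrome c oxidase (0.77), and AIM11 (0.71). In COX5B the fast libraries, at 207 and 207 CPM, barely cleared WT at 203.2 and 177, while slow had 455 and 565. Of 9 ubiquitin and proteasome genes 2 were higher, the ubiquitin-like RUB1 (0.50) and PRE3 (0.35). YSC84, which binds actin, was higher (0.90), as the 1 called of 7 actin genes, and SEC17, the yeast alpha-SNAP of membrane fusion, was higher (0.59), as the 1 called of 16 genes of vesicle traffic. Of 6 tested meiotic genes 0 were called. Of the 6 RT-qPCR transcripts RPS13, a small subunit protein, was lower (-0.31, adjusted p = 0.00106). The other RT-qPCR transcripts did not pass, at -0.19 for ACT1, -0.16 for RPL39, -0.15 for RPL28, -0.15 for ECM33 and 0.04 for COF1. EFB1, a translation elongation factor and snoRNA host, was the 1 non-RP gene that was lower (-0.19, adjusted p = 0.0272). Scaled by the whole library, 5 of these increases no longer passed: PRE3 (0.11), RUB1 (0.27), SEC17 (0.36), AIM11 (0.46) and COX5B (0.54). Without WT replicate 1, IWR1 (0.49), RUB1 (0.32), SEC17 (0.53), YSC84 (0.64), PHO85 (0.80), YDR381C-A (0.80), AIM11 (0.82), YBL059W (0.89) and EFB1 (-0.18) did not pass, and without WT replicate 2 SEC17 (0.65), AIM11 (0.60), COX5B (0.68), PRE3 (0.29) and EFB1 (-0.19) did not. PHO85 (0.74) and AIM11 (0.60) also depended on slow replicate 1, and PRE3 on fast replicate 1 (0.25) and slow replicate 2 (0.25).

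Of the 30 higher genes 4 were Ty elements, in which the counted junction is the frameshift site and not an intron, and reads of near-identical copies cannot be told apart. YDR210W-B had 209 and 201.4 CPM in fast, 187 and 178 in slow, and 26.1 and 76.3 in WT, a log2 change of 1.92. YNL284C-B had 145 and 216 CPM in fast, 871 and 770 in slow, and 128 and 115 in WT (1.66), so that slow was far above fast. YHL009W-B (1.55) and YMR045C (1.17) were the others, and YHL009W-B did not pass without WT replicate 1 (1.59) or 2 (1.5). Over 30 tested frameshift genes the median was 0.71, with 0.10 in fast and 1.55 in slow.

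The average of both mutants can pass the test where only one of them moved. In 15 of 74 genes called in the average, the mutant libraries overlapped WT. The Ty genes YBL005W-B and YDR210C-D and the RP gene RPS9A had the smallest p among them. RPS9A had 107 and 111 CPM in fast, 446 and 398 in slow, and 449 and 426 in WT, a log2 change of -2.0 in fast and -0.05 in slow. The requirement that no library overlap leaves such genes out.

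By the main call, fewer genes changed in unspliced than in spliced RNA. With the larger of both p-values adjusted, or with the mutants fitted as 1 group, unspliced RNA did not have fewer calls. Of 255 genes tested for pre-mRNA reads, 12 were higher in both mutants (4.71%) and 19 lower (7.45%). RP genes made up 15 of the lower and 3 of the higher genes, and their median log2 change was -0.09 (0.05 in fast and -0.21 in slow). The 167 non-RP genes with an intron had 9 higher and 4 lower genes and a median of 0.14 (-0.02 in fast and 0.23 in slow), beside 0.03 for all tested. Fast and slow each passed against WT, with their own adjusted p, in 10 of the higher and 8 of the lower genes, and with the larger of both p-values adjusted instead, 8 and 7 genes passed. As 1 group of 4 mutant libraries, 2 genes were higher and 1 was lower. Scaled by the whole library, 1 gene was higher, NSP1, and 13 were lower. Without WT replicate 1 the counts were 11 higher and 9 lower.

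NSP1, a nucleoporin of the nuclear pore channel, rose most. It had 729 and 398 CPM of pre-mRNA reads in fast, 684 and 538 in slow, and 129 and 161 in WT. The mutant libraries spread widely but all lay far above WT. The log2 change was 2.01 ± 0.35 (SE, adjusted p = 5.78e-05), 1.96 in fast and 2.07 in slow, and it passed under all 16 alternatives. Its junction reads were 0.76 higher (adjusted p = 0.0256). DMC1, the recombinase of meiosis, had 681 and 928 CPM in fast, 582 and 755 in slow, and 393 and 360 in WT (0.96), as the 1 called of 10 meiotic genes. NCE101 (0.82), COX5B (0.76), the protein phosphatase GLC7 (0.67), BUD25 (0.66) and MPT5, an RNA-binding protein of the PUF family (0.65), followed. DMC1 did not pass without WT replicate 1 (1.03) or 2 (0.86), and GLC7 did not without WT replicate 1 (0.29), fast replicate 1 (0.53), slow replicate 1 (0.70) or slow replicate 2 (0.63). BUD25 overlaps genes on the other strand, and the sources do not say whether the counting used strand.

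**Figure D3:**
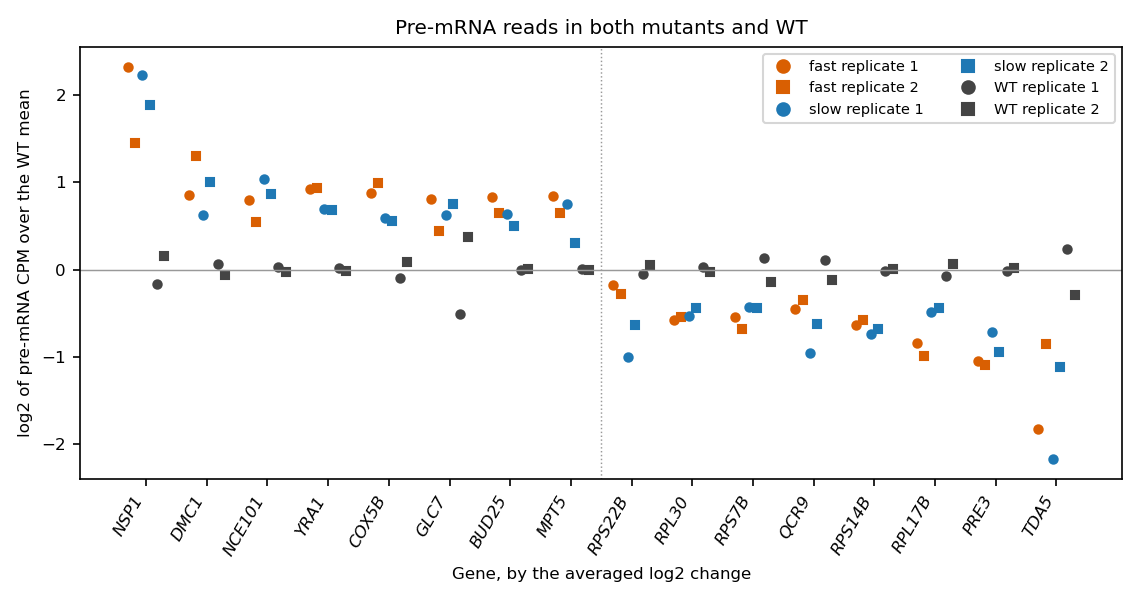
Pre-mRNA reads of the 8 genes with the largest shared increase and the 8 with the largest shared decrease, as log2 of CPM over the WT mean, 1 point per library (fast, slow, WT). NSP1 is 2.01 higher on average and TDA5 1.40 lower.

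Of the 7 tested genes whose splicing is regulated within their own family, 1 was higher and 3 lower in pre-mRNA reads, and 3 were lower in junction reads. Most of the 7 are RP genes, of which 3 of 86 were higher and 15 lower in pre-mRNA reads and 28 lower in junction reads, beside 4.71% and 7.45% of all genes in pre-mRNA reads and 11.0% lower in junction reads. YRA1, an mRNA export factor that limits the splicing of its own pre-mRNA, had 13449 and 13481 CPM of pre-mRNA reads in fast, 11400 and 11326 in slow, and 7176 and 6961 in WT (0.81 ± 0.09, SE, adjusted p = 1.28e-08). The 2 libraries of each strain were close to each other and both mutants lay well above WT. RPL30, whose protein binds its own transcript and blocks splicing, had 13106 and 13489 CPM in fast, 13618 and 14475 in slow, and 19961 and 19295 in WT (-0.52, adjusted p = 1.7e-05). RPS14B, whose pre-mRNA is bound by the Rps14 protein, had 7584 and 7870 CPM in fast, 7049 and 7368 in slow, and 11711 and 11890 in WT (-0.66, adjusted p = 3.45e-07), and its junction reads were lower as well. RPS9A pre-mRNA reads were lower in both mutants (-0.39), in contrast to its junction reads. RPL22A and RPL22B, whose products limit splicing of RPL22B, were lower in junction reads alone, and DBP2 passed in neither.

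Other named genes were lower in pre-mRNA reads as well. TDA5 had 77.1 and 151 CPM in fast, 60.7 and 127 in slow, and 324 and 225 in WT (-1.40 ± 0.48, SE, adjusted p = 0.0393). PRE3 had 583 and 561 CPM in fast, 734 and 623 in slow, and 1189 and 1218 in WT (-0.95, adjusted p = 0.000758). RPL17B (-0.69), QCR9, a subunit of the cytochrome bc1 complex (-0.59), RPS7B (-0.53), RPS22B (-0.52) and RPP1B, an acidic stalk protein of the ribosome (-0.51), were also lower. RPS22B, the 1 tested of 10 listed genes with 2 introns, had 9472 and 8820 CPM in fast, 5363 and 6914 in slow, and 10361 and 11139 in WT. TDA5 did not pass without WT replicate 1 (-1.11), WT replicate 2 (-1.68), fast replicate 1 (-1.23) or slow replicate 1 (-1.19), and QCR9 did not without the same libraries (-0.47, -0.74, -0.60 and -0.51). RPS7B depended on WT replicate 1 (-0.38) and RPS9A on WT replicate 2 (-0.32). The RT-qPCR transcripts did not pass, with changes of -0.09 for ECM33, 0.00 for COF1, 0.05 for ACT1, 0.07 for RPS13, 0.10 for RPL28 and 0.17 for RPL39. Overlap with WT kept out 14 genes called in the average, of which RPS14A, TEF4 and YOR318C had the smallest p. RPS14A had 10284 and 11134 CPM in fast, 3156 and 3258 in slow, and 4116 and 4265 in WT, so that the mutants lay on opposite sides of WT.

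Spliced and unspliced reads were set beside each other for the genes called in both. In 8 genes both levels changed in both mutants. COX5B and NSP1 rose in both, and RPL18B, RPL40B and RPS14B fell in both. PRE3 and TDA5 had fewer pre-mRNA and more junction reads, and RPL26B had more pre-mRNA (0.46) and fewer junction reads (-0.27). In RPS14B, with both levels lower, the log2 change of the ratio was 0.01 ± 0.22 (SE, adjusted p = 0.996).

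**Figure D4:**
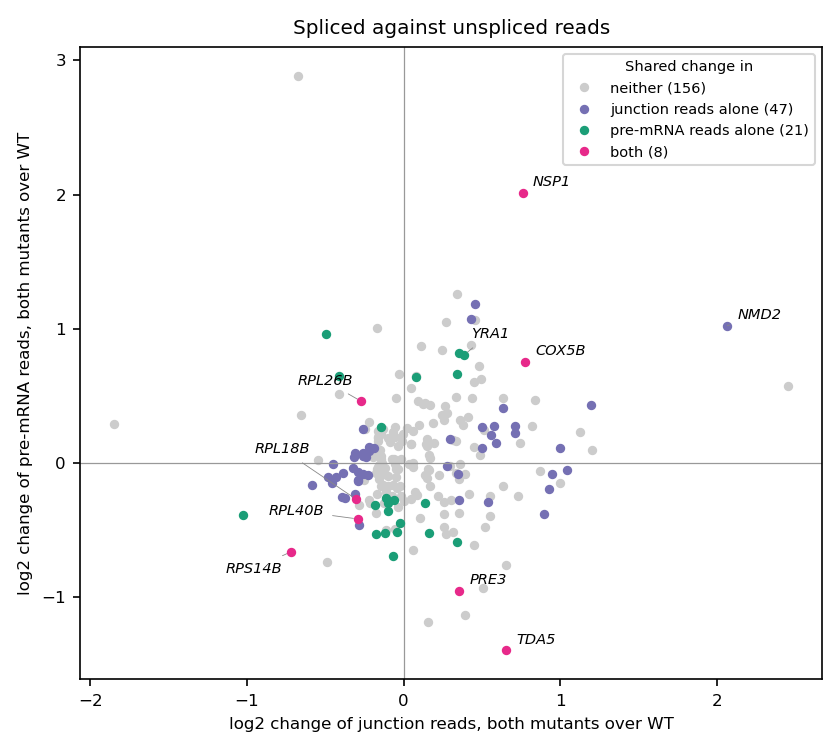
Averaged log2 change of pre-mRNA reads (vertical) against junction reads (horizontal) of both mutants over WT, 1 point per gene without frameshift genes, coloured by the level in which the change was shared: both (8 genes), junction reads alone (47), pre-mRNA reads alone (21) or neither (156). PRE3 and TDA5 lie at the lower right and RPL26B at the upper left.

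Use of unannotated splice sites was measured as splicing error frequency (SEF), that is, unique reads of a junction with 1 annotated and 1 unannotated splice site, divided by those of the annotated junction. Of 289 such junctions with at least 30 reads over the libraries, 0 passed the edgeR test with no overlap (0.0%), and the smallest adjusted p was 0.302. An unadjusted p under 0.05 was reached by 17, and DESeq2 called 7 higher and 1 lower. All 4 mutant libraries lay above both WT libraries in 31 junctions and below them in 15. Most libraries behind the read filter are mutant, so a junction absent in WT can enter only as higher. The median log2 change was 0.10 over the 289 junctions, and -0.28 over 169 with at least 5 reads in both WT libraries. That second filter in turn leaves out sites that are low in WT, so the lean depends on the filter. Fisher's exact test on summed reads, with a p under 0.01, an FDR under 0.03 and no overlap between the libraries, called 30 higher (10.4%) and 13 lower (4.5%). That test covers counting error only and leaves out the spread between cultures, and the junctions below were picked after their values were seen.

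The calls are given by kind of site, and no difference between kinds was tested. A new 3′SS upstream of the annotated one by over 50 nt was higher in 8 of 18 junctions (44.4%) and lower in none. A 5′SS over 50 nt downstream was higher in 8 of 43 (18.6%) and lower in 1. Both kinds cut the intron short from inside, and together they gave 16 higher and 1 lower of 61, with 15 of 52 sites higher in RP genes and 1 of 9 in non-RP genes. The remaining 228 junctions had 14 higher and 12 lower. The distance of 50 nt was chosen after the values were seen. As a total, reads at an upstream 3′SS were 684 and 705 for each 1000000 annotated RP reads in fast, 672 and 551 in slow, and 432 and 428 in WT. All mutant libraries were above WT, at 1.52 times its mean (exact permutation p = 0.133, two-sided, and 0.467 after adjustment over 14 totals). This total sums the junctions that passed the read filter, so the filter enters it too. Single sites with many reads, such as that of RPL26B given below, are part of it, and the total without them was not computed. In non-RP genes the same total was 3062 and 3505 in fast, 3825 and 3985 in slow, and 3069 and 2954 in WT, with overlap. The other 6 totals by kind of site and gene class overlapped too.

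The introns made with 5 of the far upstream 3′SS are short enough to show whole, and RPL26B, which had the most reads, is shown by the 60 nt before its new and its annotated 3′SS. Capitals mark the first 6 bases of an intron, TACTAAC and the last 3 bases, and positions are those of R64.
RPL13B, 330 nt upstream (chrXIII:551132-551203, - strand): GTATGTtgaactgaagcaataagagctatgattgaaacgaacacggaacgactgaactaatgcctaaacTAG
RPL37A, 303 nt upstream (chrXII:522670-522725, + strand): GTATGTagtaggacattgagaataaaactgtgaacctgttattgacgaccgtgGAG
RPS7A, 343 nt upstream (chrXV:505938-505995, + strand): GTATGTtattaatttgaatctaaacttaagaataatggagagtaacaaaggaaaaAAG
RPS6B, 256 nt upstream (chrII:592673-592768, - strand): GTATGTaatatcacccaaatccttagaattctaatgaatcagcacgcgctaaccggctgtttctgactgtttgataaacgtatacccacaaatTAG
MPT5, 559 nt upstream (chrVII:167355-167435, + strand): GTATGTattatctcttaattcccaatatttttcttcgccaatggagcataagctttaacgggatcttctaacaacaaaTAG
RPL26B, 198 nt upstream, last 60 nt (chrVII:556050-556109, + strand): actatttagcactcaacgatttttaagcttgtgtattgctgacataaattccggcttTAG
RPL26B, annotated, last 60 nt (chrVII:556248-556307, + strand): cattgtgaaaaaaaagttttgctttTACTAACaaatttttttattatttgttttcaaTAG
None of the 8 higher junctions of this kind holds TACTAAC between its 5′SS and the new 3′SS, against 4 of the 10 that were not called and 82.4% of annotated introns. All 18 use the annotated GTATGT, called or not. The new introns are 56 to 279 nt long, with a median of 80 nt, where annotated RP introns have a median of 408.5 nt. Sites this far upstream can lie before the annotated branch point, so the missing motif and the short length follow in part from the choice of sites. In RPL13B the printed intron holds AACTAAT, a cryptic branch point that the paper cites from lariat sequencing. Of the new sites 5 end in TAG, 2 in AAG and 1 in GAG.

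RPL26B carried 4 of the 16 far sites inside introns. Its 3′SS 198 nt upstream had an SEF of 0.545% and 0.691% in fast, 0.487% and 0.412% in slow, and 0.0722% and 0.130% in WT, from 613 and 755, 314 and 348, and 70 and 118 reads. The mutants lay close together and the summed SEF was 5.46 times that of WT (edgeR unadjusted p = 0.0117, adjusted p = 0.483). In RPS7A the SEF was 0.138% and 0.155% in fast, 0.191% and 0.170% in slow, and 0.0482% and 0.0582% in WT. In RPL13B, the site 330 nt upstream had 55 and 55 reads in fast, 8 and 3 in slow, and 0 and 0 in WT, at least 20.1-fold higher over the floor of 3 reads for both WT libraries. In RPL37A the reads were 34 and 19 in fast, 4 and 25 in slow, and 0 and 0 in WT, at least 14.5-fold higher. MPT5, whose pre-mRNA was also higher, had 15 and 10 reads in fast, 5 and 2 in slow, and 0 and 0 in WT, against few annotated reads, so that its SEF was 34.9% and 30.3% in fast and 7.46% and 1.5% in slow.

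**Figure D5:**
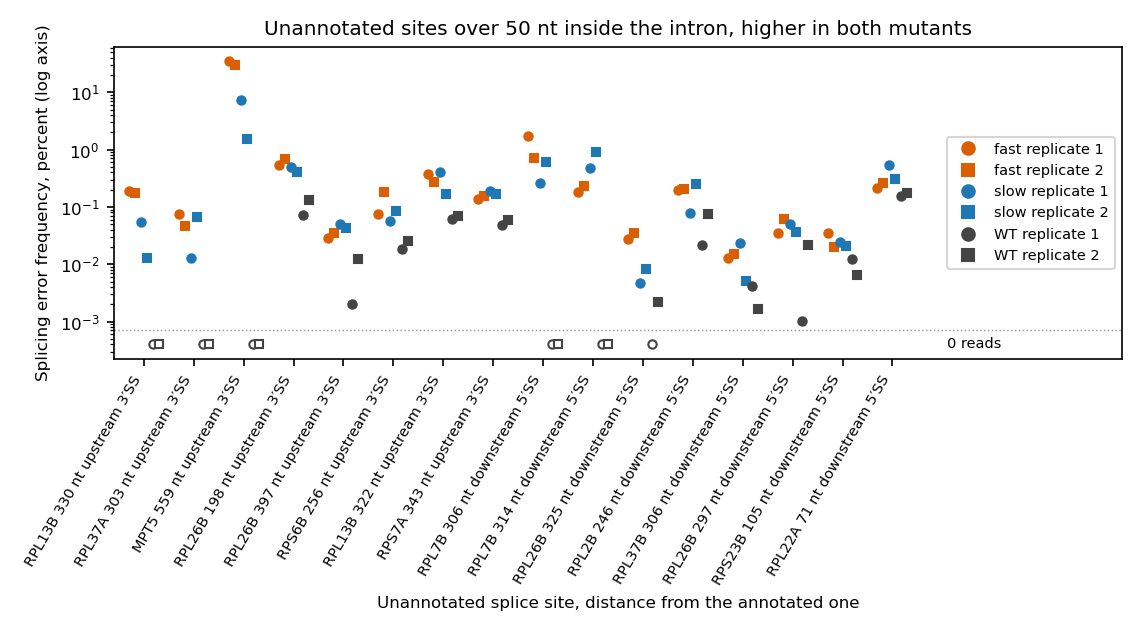
SEF in percent (log axis) of the 16 unannotated sites over 50 nt inside the intron that were higher in both mutants by Fisher's exact test, 1 point per library (fast, slow, WT), with open symbols at the bottom for libraries without reads. In each site all mutant libraries lie above both WT libraries, and in 5 sites neither WT library has reads.

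Of the far 5′SS, 2 lie 8 nt apart in the second intron of RPL7B, and both were without reads in WT. The first 30 nt after each are shown with the annotated start, the first 6 bases in capitals.
RPL7B, 306 nt downstream (chrXVI:173972-174001, + strand): GTTTTAtcgtgcatatttttcactaaattg
RPL7B, 314 nt downstream (chrXVI:173980-174009, + strand): GTGCATatttttcactaaattggaatgacg
RPL7B, annotated (chrXVI:173666-173695, + strand): GTATGTtcatttaccatgtttgaaagatat
The site at 306 nt had 39 and 15 reads in fast, 7 and 21 in slow, and 0 and 0 in WT, at least 47.0-fold higher. The site at 314 nt had 4 and 5 reads in fast, 13 and 32 in slow, and 0 and 0 in WT, at least 30.9-fold higher. Both folds are of SEF, which divides by reads of the annotated junction. For this intron those annotated reads were fewer in the 4 mutant libraries together than in the 2 WT libraries together. Both folds are therefore much larger than those of the new reads alone. At 306 nt the reads of fast and slow overlapped, and at 314 nt both slow libraries had more reads than both fast libraries. Of the 289 junctions tested, 0 differed between fast and slow by the edgeR test at an adjusted p under 0.05. The same test called 0 in fast and 0 in slow against WT, so it cannot show whether the mutants differ here. None of the 43 tested far 5′SS starts with GTATGT, the 8 higher ones included.

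Sites within 50 nt of the annotated ones were called in both directions, with 12 higher and 9 lower of 190. UBC8, a ubiquitin-conjugating enzyme, had an SEF of 22.6% and 17.5% in fast, 15.7% and 11.9% in slow, and 5.94% and 6.16% in WT at a 3′SS 19 nt upstream. YBR062C had 14.9% and 5.78% in fast, 10.9% and 7.62% in slow, and 2.48% and 1.72% in WT at a 3′SS 5 nt upstream. SAC6, which bundles actin, had 15 and 21 reads in fast, 31 and 15 in slow, and 3 and 0 in WT at a 3′SS 2 nt downstream. Of the sites over 50 nt away, 4 were lower. RPS22B held the 1 lower of the 61 far sites inside an intron. Its SEF was 0.326% and 0.560% in fast, 0.318% and 0.603% in slow, and 2.63% and 2.64% in WT at a 5′SS 414 nt downstream (summed SEF 0.172 times that of WT, edgeR unadjusted p = 0.00751). The WT libraries were alike and every mutant library was far below them. IST1 had 0 and 3 reads in fast, 1 and 0 in slow, and 24 and 11 in WT at a 3′SS 295 nt downstream.

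Cryptic introns, which share no end with an annotated junction, were compared as reads for each 1000000 annotated nuclear junction reads (RPM). Of 303 tested, 5 were higher in both mutants (1.65%) and 0 lower, with 40 at an unadjusted p under 0.05. All 4 mutant libraries lay above WT in 44 and below it in 8. The median log2 change was 0.40, and the lower number of RP junction reads in the mutants enters this scale: relative to non-RP annotated reads the median was 0.21, and 2 introns were called. DESeq2 called 9 higher and 1 lower. The filter counts reads over all 6 libraries, 4 of them mutant, so an intron absent in WT can enter only as higher. Among 161 introns with at least 5 reads in both WT libraries, 4 were higher and 9 lower, with a median of -0.06. That filter in turn leaves out introns that are low in WT, so the lean to higher use depends on the filter.

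Of the 5, 3 had no reads in WT. Without WT replicate 1 none of the 5 passed (adjusted p = 0.0555 to 0.0595), nor without WT replicate 2 (0.0737 to 0.117), and VBA1 also missed without slow replicate 2 (0.072). The intron in EST1, a subunit of telomerase, had 7.61 and 13.0 RPM in fast, 6.29 and 7.04 in slow, and 0 and 0 in WT, from 47 and 78, 24 and 36, and 0 and 0 reads. It was at least 30.6-fold higher over the floor of 3 reads for both WT libraries (adjusted p = 0.0129). At the start of ADE2, which acts in purine synthesis, an intron had 11.2 and 14.2 RPM in fast, 4.19 and 7.23 in slow, and 0 and 0 in WT, at least 34.2-fold higher (adjusted p = 0.0128). An intron antisense to VBA1 (chrXIII:443439-443821, + strand) had 3.4 and 4.0 in fast, 8.12 and 7.82 in slow, and 0 and 0 in WT, at least 19.2-fold higher (adjusted p = 0.028). Host transcript levels were not among the values used, and their part in these changes was not tested. The first pair of introns is shown with the first 6 and last 3 bases in capitals, and neither holds TACTAAC.
EST1 (chrXII:609403-609496, - strand): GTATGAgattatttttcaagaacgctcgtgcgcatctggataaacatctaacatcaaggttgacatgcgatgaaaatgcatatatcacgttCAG
ADE2 (chrXV:565946-566193, - strand): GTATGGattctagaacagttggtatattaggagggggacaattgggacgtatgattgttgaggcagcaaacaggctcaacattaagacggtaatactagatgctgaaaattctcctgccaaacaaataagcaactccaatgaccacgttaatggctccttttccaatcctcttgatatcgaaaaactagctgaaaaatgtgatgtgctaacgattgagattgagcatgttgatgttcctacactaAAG
In ADE2 the intron starts at GTATGG, whose ATG is the start codon of the gene.

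The other 2 higher introns lie before a start codon and carry many reads. They count as cryptic here only because they share no end with an annotated junction, and the level of their host transcripts was not used. Before ARF2, a small GTPase of the secretory pathway, an intron (chrIV:216158-216489) had 1667 and 1684 RPM in fast, 2175 and 2343 in slow, and 1363 and 1442 in WT (0.47, adjusted p = 0.0123). Before RPS26B the intron (chrV:423591-423951) had 2462 and 2487 in fast, 1790 and 1763 in slow, and 1692 and 1598 in WT (0.35, adjusted p = 0.0162). Relative to non-RP annotated reads neither of these introns was called, nor was that of VBA1, which left those of EST1 and ADE2. The smallest change under any alternative was 0.29 for ARF2 and 0.17 for RPS26B. Called in the average but not separated from WT were 4 introns, of which those before RPS26A, RPL29 and RPL24B had the smallest p. The intron before RPS26A (chrVII:148599-148966) had 5902 and 5931 RPM in fast, 972 and 922 in slow, and 1204 and 1123 in WT, with fast far above and slow below.

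By place, 16 of the 102 cryptic introns inside a gene lay above WT in all mutant libraries and 5 below, and 9 of 55 antisense to a gene lay above and 1 below, beside the 44 above and 8 below of all 303. Inside genes their summed reads were 698 and 719 RPM in fast, 801 and 809 in slow, and 594 and 513 in WT. For the antisense group they were 154 and 165 in fast, 196 and 143 in slow, and 86.9 and 107 in WT. Both sums were higher in every mutant library than in WT, at 1.37 and 1.70 times the WT mean (exact permutation p = 0.133 each, two-sided, and 0.467 after adjustment over 14 totals). They use the same scale and filter as the single introns, so the lower number of RP junction reads and the filter enter them too. The intron in PUS7, a pseudouridine synthase, had 16.8 and 15.2 RPM in fast, 37.5 and 17.4 in slow, and 0.18 and 2.65 in WT, and did not pass (adjusted p = 0.0786). It was named after its values were seen.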

How the data were processed

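Total RNA depleted of rRNA was sequenced by the study as strand-specific 150-base paired ends, in 2 cultures each of fast, slow and WT. The authors aligned the reads with STAR (version not given in the sources used here) to S288C R64 (sacCer3) and deposited raw counts of unique and multiply mapped reads per junction. They also deposited counts per gene and read class from dice-count, with FPKM values that were used here only to recover the relative library totals.

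Nuclear counts were tested with edgeR 4.0.16 in R 4.3.3 by quasi-likelihood, over all 3 strains in 1 fit, for the average of fast and slow minus WT. Ratios were fitted on 2 counts per library (at least 10 reads of each kind), levels with TMM and edgeR's default filter, and junctions with at least 30 unique reads over the 6 libraries. SEF used sites within 1000 nt of the annotated one. Cryptic introns were at most 1500 nt long with fewer than 8 identical bases at their ends, and were scaled to annotated nuclear junction reads, with a floor of 3 reads over both WT libraries. Totals were compared by an exact permutation test. Alternatives included DESeq2 1.42.0, other scalings and filters, a replicate block and leaving out each library. The fits were tested on simulated data.

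The text names the 8 largest shared changes per direction (6 for cryptic introns), shared members of the gene lists, the 6 RT-qPCR transcripts and the 3 overlapping features with the smallest p, and says where others were chosen after their values were seen. Members and lists were chosen with earlier results of these data known. Depth is given in the report, and intervals of depth and floors cover counting error only. The 3 mitochondrial genes and host transcript levels were not used.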

Additional observations from a re-analysis of the deposited data

Results flagged for a closer look

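Fast and slow differed from each other in the size of 14 shared changes named above, by the test of fast minus slow in the same edgeR fit (adjusted p under 0.05, Benjamini-Hochberg over all features), while all 4 mutant libraries stayed on one side of WT. In junction reads the log2 difference of fast minus slow was -2.18 in YNL284C-B, -1.40 in YMR045C, -1.30 in COX5B, -0.93 in MRPL44, -0.91 in PHO85, -0.69 in AIM11 and -0.64 in RPL22B. It was 0.79 in RPS14B, 0.56 in RPL42B and 0.27 in RPL33B. In pre-mRNA reads it was -0.46 in RPL17B and 0.57 in RPS22B. For the leader introns it was -0.43 before ARF2 and 0.48 before RPS26B. Over all shared changes, 18 of 59 in junction reads, 3 of 31 in pre-mRNA reads and 2 of 5 in cryptic introns differed between the mutants in this way.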

How the results depend on the processing

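With 2 WT libraries, the counts of shared changes depended on each of them. Leaving out 1 library at a time gave 0 to 3 higher and 0 to 2 lower for the ratio, 11 to 30 and 19 to 45 for junction reads, 11 to 15 and 9 to 18 for pre-mRNA reads, and 0 to 11 and 0 to 1 for cryptic introns. Treating the 4 mutant libraries as 1 group left 1 higher and 0 lower in junction reads, 2 and 1 in pre-mRNA reads, and 2 higher cryptic introns. Calling from the larger p of fast and of slow against WT, adjusted over all features tested and with the same direction in both, left 5 and 9 in junction reads, 8 and 7 in pre-mRNA reads and 0 cryptic introns. This is stricter than the count in the report, where the p-values of each mutant were adjusted separately. Whole-library scaling gave 10 higher in junction reads and 1 in pre-mRNA reads, so that 22.2% and 7.14% of calls were higher, against 50.8% and 38.7%, and DESeq2 and its size factors gave 39.4% and 36.1% in junction reads. With overlap allowed, 22 genes were higher in pre-mRNA reads and 9 cryptic introns were. DESeq2 called 2 higher and 7 lower ratios, 7 and 1 unannotated sites and 9 and 1 cryptic introns. Fisher's exact test called 30 and 13 sites. Boundary reads alone gave 1 higher and 3 lower ratios. Cryptic introns numbered 9 higher with multiply mapped reads, 0 with no limit of length and 2 on the non-RP scale. They numbered 5 higher and 1 lower with 5 reads in a strain, and 4 higher and 9 lower with 5 reads in both WT libraries. The causes were not tested.

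Same-numbered libraries did not deviate together (correlations of -0.316 to 0.135), so the numbers were not taken as pairs. The replicate block gave 1 higher and 3 lower ratios, 35 and 30 genes in junction reads, 12 and 21 in pre-mRNA reads, 0 and 0 sites and 10 higher cryptic introns.

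Signs turned only in uncalled RT-qPCR transcripts and in totals. In junction reads COF1 was -0.0229 in DESeq2, -0.023 with its size factors, -0.195 with the whole library and -0.00767 with no filter. In pre-mRNA reads, whole-library scaling gave -0.221 for ACT1, -0.178 for RPL28, -0.119 for RPL39 and -0.215 for RPS13, and boundary reads gave 0.472 for ECM33, -0.0131 for RPL28 and -0.0335 for RPS13. Leaving out single libraries gave -0.223 to 0.0165 for the ratio of COF1, -0.0384 to 0.0526 for that of ECM33, -0.082 to 0.0951 for junction reads of COF1, -0.137 to 0.183 for pre-mRNA reads of ACT1, -0.133 to 0.101 for those of COF1, -0.0292 to 0.141 for those of RPS13, -4.65 to 47.5 for the difference of RP downstream 5′SS reads on the same scale as in the report, -3.02 to 109 for that of non-RP genes, -0.48 to 1.17 for the difference in percentage points of the RP pre-mRNA share and -0.279 to 1.24 for that of the non-RP share.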
